A study of Gallus gallus with 9 samples.

Results

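The respiratory chain genes described here are the nuclear genes for subunits of mitochondrial complexes I to V in the chick embryo (Gallus gallus). They were chosen by name: every gene whose chicken symbol starts with NDUFA, NDUFB, NDUFC, NDUFS, NDUFV, UQCR, ATP5, COX4, COX5, COX6, COX7 or COX8, together with SDHA, SDHB, SDHC, SDHD and CYC1. Symbols that contain AF, which stands for assembly factor, were left out, and no other filter on function was used. Of 75 such genes in the RefSeq table used for names, 69 had an entry in the data, among 14120 named genes in all. By complex, 33 belong to complex I, 3 to complex II, 7 to complex III, 10 to complex IV and 16 to complex V. NDUFA4 was counted with complex IV, of which it is now known to be a subunit. ATP5S and ATP5SL carry the ATP5 name without being subunits of the synthase. No entry was matched to ATP5F1AZ, ATP5PB, NDUFB11, NDUFB7, SDHC or UQCRB, and the name table lists no CYC1, an electron-carrying subunit of complex III; these genes are not analysed here, and the 7 members of complex III are without CYC1 and UQCRB.

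Complex I takes electrons from NADH and complex II takes them from succinate. Both pass them through ubiquinone to complex III, which hands them to cytochrome c, and complex IV passes them on to oxygen. Complexes I, III and IV pump protons across the inner mitochondrial membrane, and complex V, the ATP synthase, lets them flow back to make ATP. Most subunits are encoded in the nucleus and imported, while a few are made inside the mitochondrion. In the adult cornea the endothelium is rich in mitochondria, whose ATP feeds the ion pumps that keep the stroma clear.

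In all, 3 groups of 3 libraries were sequenced. The E3 group is periocular neural crest of embryonic day 3, the E5 group is endothelium of the cornea at day 5, and the E7 group is that endothelium at day 7 together with keratocytes, the fibroblasts of the stroma. The labels name no strain, treatment or genotype and do not say whether libraries came from separate embryos, so the p-values cover the spread among these libraries alone, and that spread may be technical. Library totals ran from 9874339 to 23205388 expected counts. Levels are given as the authors' FPKM, which is scaled to transcript length and library depth, summed over the entries of a gene. Changes are log2 fold changes with their SE from edgeR's quasi-likelihood F-test on counts scaled by TMM factors, and a gene was called when its p-value, adjusted by Benjamini and Hochberg over all 11748 genes tested, was under 0.05. The 6 corneal libraries were compared with E3 together, as the mean of the E5 and E7 group means, and group by group. These comparisons share the E3 libraries, and those of E5 and E7 with E3 are given side by side only.

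Library 3 of E5 and library 3 of E7 stood apart from their groups. Across genes, the log2 CPM, the count relative to the library total, of E7 library 3 correlated at 0.990 and 0.987 with E5 libraries 1 and 2, but at 0.952 and 0.959 with E7 libraries 1 and 2. E5 library 3 correlated at 0.983 and 0.987 with E7 libraries 1 and 2 and at 0.962 and 0.966 with its own group. The labels were kept as given, and every value for E5, for E7 and between them rests on these labels. Whether the labels of these 2 libraries were exchanged was not tested. The keratocyte marker sum (7 genes) was 13955, 12350 and 4112 CPM in E5 libraries 1 to 3 and 5476, 4422 and 14562 CPM in E7 libraries 1 to 3. It was thus highest in 2 libraries labelled endothelium and in 1 labelled endothelium with keratocytes. Of the defining markers, AQP1, the water channel of the endothelium, lay at 0.48 to 1.20 FPKM at E3 and at 524 to 1085 FPKM in the cornea, whereas SLC4A11, a transporter of the mature endothelium, was at 0.62 to 1.18 FPKM throughout. Of the 7 genes of their list, 3 were called higher and 1 lower in the cornea, with log2 fold changes from -0.92 to 9.94. The sum of that list was 761 to 806 CPM at E3 and 1842 to 2666 CPM in the cornea. SOX10, a crest marker, lay at 14.5 to 17.2 FPKM at E3 and at 0.01 to 1 FPKM in the cornea. The crest list it belongs to did not fall as a whole: of 7 genes tested, 3 were called higher and 3 lower, and its sum was 574 to 698 CPM at E3 and 1962 to 2444 CPM in the cornea. The erythroid marker sum, over 10 genes with an entry of 17 listed, was 2860 to 3342 CPM at E3 and 2.28 to 196 CPM in the cornea. In such bulk samples, fewer cells of a type and less RNA per cell cannot be told apart, and the part of other cell types in the results below was not tested.

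Transcripts of the chain were abundant in all 3 tissues. The median of the members' mean FPKM over the 9 libraries was 110, against 9.25 over all genes tested, and 37 of 69 members (53.6%) averaged 100 FPKM or more, against 4.97% of all genes tested. Median levels per length were 79.6 FPKM for complex I, 63.1 for complex II, 125 for complex III, 165 for complex IV and 210 for complex V. The highest single member was ATP5B, the catalytic beta subunit of the synthase, at a mean of 429 FPKM. The lowest was NDUFB3, a small accessory subunit of complex I, at 9.11 FPKM. Together the members held 1.73 to 2.11% of all FPKM of a library.

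Most subunits moved little between crest and cornea, and those that moved went in both directions. In the cornea 15 of 69 members were called higher and 8 lower than at E3, that is 33.3% in either direction. Over all genes tested, 20.9% were called higher and 20.8% lower, 41.7% in either direction. In 63 members the log2 fold change was smaller than 0.5 in size, against 54.6% of all genes, and no member changed by 1 or more, against 23.2%. On counts scaled by TMM factors, all corneal libraries lay above all E3 libraries in 15 members and below them in 9, against 21.7% and 22.7% of all genes. The median change was 0.07 over the members and 0.03 over all genes tested. With library size alone in place of TMM factors, the median of all genes tested was -0.13 and that of the members -0.09, and 7 members were called higher and 15 lower. Over all genes, 1918 were then called higher and 3338 lower. Limma on log2(FPKM + 1) gave 7 members higher and 16 lower, and 1698 and 3205 of 9969 genes. The balance of rises and falls thus depends on the scaling, in the members and over all genes. Without E3 library 1, 2 or 3 the members' counts lower were 4, 4 and 3, without E5 library 1 or 2 they were 5 each, and 8 members were called higher without E3 library 1. Over all genes the counts lower without E3 library 1, 2 or 3 were 1864, 1745 and 1765, against 2442 with all libraries. No named member changed sign in a setting where it was called.

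**Figure D1:**
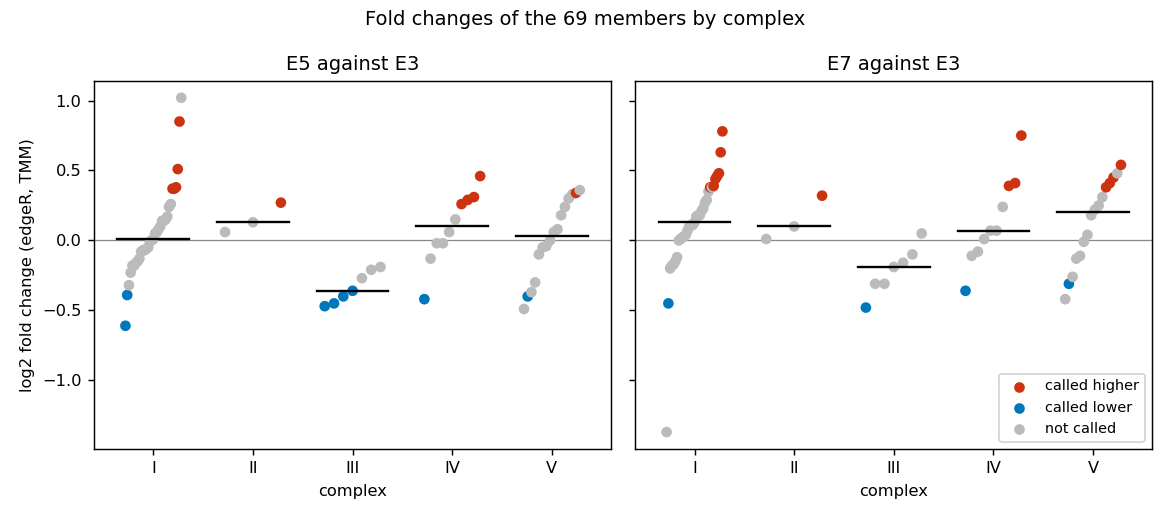
Log2 fold change of each of the 69 members (points, ordered by value within a complex) for E5 against E3 on the left and E7 against E3 on the right, on the TMM scale, with the median of each complex as a bar. All 7 points of complex III lie below 0 at E5 and 6 of 7 at E7. All 3 points of complex II lie above 0 in both panels, while complexes I, IV and V spread to both sides. With library size alone the medians of complexes I, II, IV and V in cornea against E3 lie below 0 as well.

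Complex III was the complex whose members all lay below their E3 level in the cornea. All 7 had a log2 fold change below 0 in cornea against E3, 3 of them called lower and none higher, with a median of -0.28. Over all genes tested, 20.8% were called lower. In either direction, 42.9% of the complex and 41.7% of all genes were called. The medians were 0.10 for complex I, 0.08 for complex II, 0.09 for complex IV and 0.11 for complex V, or 0.05 for complex V without ATP5S and ATP5SL. With library size alone these became -0.05, -0.08, -0.07 and -0.05, and complex III stood at -0.43. At E5 the median of complex III was -0.36 with 4 members called lower, against 17.7% of all genes. At E7 it was -0.19 with 1 called lower (14.3%), against 16.4% of all genes. All 7 members were below 0 in cornea against E3 and in E5 against E3 under every alternative run, each library left out in turn included.

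A share within a library does not depend on that scaling. Complex III made up 14.5, 14.5 and 14.4% of the members' summed FPKM in the E3 libraries, 11.0, 11.4 and 11.6% at E5 and 12.3, 12.1 and 10.7% at E7. No corneal library reached the E3 range. Complex IV moved the other way, from 18.7 to 19.2% at E3 to 19.7 to 22.0% in the cornea, again without overlap. The share of complex I was 29.1 to 29.7% at E3 and 29.7 to 31.5% in the cornea, that of complex V 34.8 to 35.1% and 34.1 to 34.9%, and that of complex II 2.36 to 2.48% and 2.33 to 2.70%. A share rises when another falls, so these 5 values are not independent. The summed FPKM of complex IV itself overlapped, with 1805.1 to 1852.5 at E3 and 1665.2 to 2046.1 in the cornea.

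**Figure D2:**
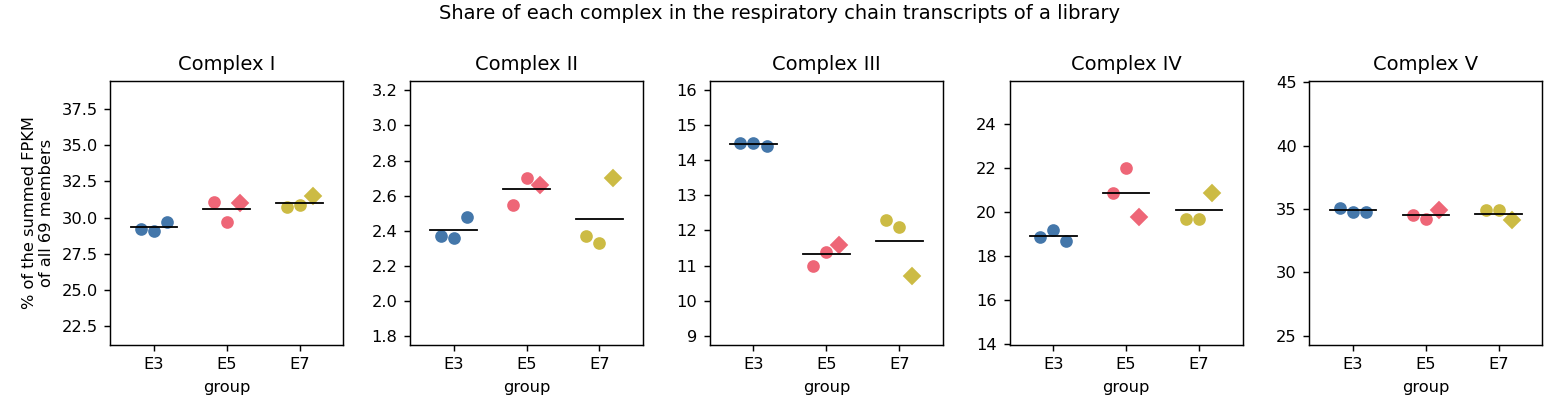
Share of each complex in the summed FPKM of the 69 members (y axis, percent, not starting at 0) for the 3 libraries of each group (points; diamonds mark E5 library 3 and E7 library 3), with the group mean as a bar. Complex III lies at 14.4 to 14.5% in every E3 library and at 10.7 to 12.3% in the corneal libraries. The share of complex IV, but not its summed FPKM, is higher in every corneal library than in any E3 library.

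The called falls of complex III were in UQCR11, UQCRHL and UQCRC1. UQCR11, a small subunit, was at 159, 163 and 167 FPKM in the E3 libraries, 94.6, 105 and 114 FPKM at E5 and 123, 119 and 79.5 FPKM at E7. It changed by -0.47 (SE 0.11, adjusted p = 0.0121), and lost its call without E3 library 3. It was also called in both groups, but these calls were lost under 6 alternatives at E5 and 5 at E7, in both cases without any 1 of the E3 libraries. UQCRHL, of the hinge protein family and the most abundant member of the complex, was at 390.0, 378 and 371 FPKM in the E3 libraries, 228, 247 and 265 FPKM at E5 and 310.2, 319.9 and 213 FPKM at E7. It changed by -0.38 (SE 0.10, adjusted p = 0.0194) in the cornea, and this call was lost when any 1 of the 3 E3 libraries was left out. It was called at E5 (-0.45, SE 0.12, adjusted p = 0.0217), where leaving out any 1 of 5 libraries ended the call, but not at E7 (adjusted p = 0.0831). UQCRC1, a core protein facing the matrix, was at 146, 149.5 and 157 FPKM in the E3 libraries, 93.1, 91.6 and 120.5 FPKM at E5 and 116, 129.6 and 88.0 FPKM at E7, and it changed by -0.35 (SE 0.11, adjusted p = 0.0318). Its call was lost without any 1 of the E3 libraries, without E5 library 1 or 2, without E7 library 1 and with a replicate block. For these 3 genes every corneal library lay below every E3 library. UQCRFS1, the Rieske iron-sulfur protein that carries electrons towards cytochrome c, changed by -0.28 (SE 0.10, adjusted p = 0.0512), just short of a call, and was called lower at E5 (-0.36, adjusted p = 0.0387). Its call at E5 was lost under 7 alternatives, among them without any 1 of the E3 libraries. In cornea against E3 it gained a call under 8 alternatives. UQCRC2, UQCRQ and UQCR10 had values of -0.15, -0.17 and -0.11 and were not called. In UQCR10 the E7 libraries 1 and 2 stood at 300 and 299 FPKM, above the E3 range of 269 to 283, while E7 library 3 stood at 184.5 FPKM.

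Complex I held the largest rise and the largest called fall among the members. NDUFA13, an accessory subunit of the membrane arm also known as GRIM-19, was at 75.7, 73.0 and 76.9 FPKM in the E3 libraries, 125, 114 and 122 FPKM at E5 and 109.5, 119 and 124 FPKM at E7. The corneal libraries did not overlap those of E3, and the change was 0.82 (SE 0.08, adjusted p = 0.000198). NDUFA5, an accessory subunit of the matrix arm, went down, with 67.8, 67.9 and 66.5 FPKM in the E3 libraries, 38.7, 37.7 and 41.0 FPKM at E5 and 49.1, 51.1 and 34.9 FPKM at E7. It changed by -0.53 (SE 0.10, adjusted p = 0.00337), and again the groups did not overlap. Both were called at E5 and at E7. In cornea against E3 and at E5 they kept their call under every alternative run, while at E7 that of NDUFA5 was lost without any 1 of the E3 libraries.

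Of the 33 members of complex I, 6 were called higher and 2 lower in the cornea, 24.2% in either direction against 41.7% of all genes tested. Besides NDUFA13, the rises were in NDUFB2 (0.57), NDUFS5 (0.42), NDUFB10 (0.40), NDUFS8 (0.38) and NDUFA6 (0.37). NDUFB2, NDUFS5 and NDUFB10 are accessory subunits of the membrane arm and kept this call under every alternative run. At E5 these genes were also called higher, but each lost that call with library size alone and in limma on FPKM. NDUFB10 was at 119, 122 and 121 FPKM in the E3 libraries, 141, 129.6 and 142 FPKM at E5 and 145, 158 and 145 FPKM at E7, with no overlap between cornea and E3. NDUFS5 was at 104, 99.5 and 100.2 FPKM in the E3 libraries, 132, 103 and 113 FPKM at E5 and 128, 129.9 and 122 FPKM at E7, where 1 E5 library lay within the E3 range on the FPKM scale. NDUFS8, a core subunit that carries iron-sulfur clusters, and NDUFA6 lost their call with library size alone, in limma on FPKM and without E3 library 1, and NDUFS8 also without E3 library 2. The second fall was in NDUFB1 (-0.22, adjusted p = 0.0422), whose call was lost under 9 alternatives.

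By role, 1 of 7 electron-carrying core subunits, 4 of 16 accessory subunits of the membrane arm and 1 of 10 accessory subunits of the matrix arm were called higher, counts that lie around the 20.9% of all genes. The most abundant member of the complex, NDUFB4, was at 205, 195 and 197 FPKM in the E3 libraries, 158, 167 and 199.8 FPKM at E5 and 248, 235 and 175 FPKM at E7 and was not called (0.13, adjusted p = 0.308). NDUFA8 was called lower at E5 only (-0.39, adjusted p = 0.0356), and the difference from its value at E7 (-0.17) was 0.22 with an adjusted p of 0.972. Its call at E5 was lost under 6 alternatives, and in cornea against E3 it gained a call lower under 7. NDUFS3 and NDUFB3 varied most between libraries, from 4.76 to 32.05 and from 0.69 to 19.8 FPKM, and neither was called. Their counts, like those of NDUFS8, are among those of 13 members that were not whole numbers in every library. The reason for this was not tested.

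Complex II is small, and its 3 members with an entry all lay close to their E3 level. SDHA, the flavoprotein that oxidises succinate, was at 51.6, 53.9 and 49.97 FPKM in the E3 libraries, 49.9, 57.2 and 58.6 FPKM at E5 and 57.7, 63.4 and 55.0 FPKM at E7. It was called higher, with 0.29 (SE 0.06, adjusted p = 0.00782), but the lowest E5 library lay just below all E3 libraries on the FPKM scale, and the call was lost with library size alone and in limma on FPKM. SDHB, the iron-sulfur subunit, had a change of 0.07 and SDHD, a membrane anchor, of 0.08, and neither was called. SDHD was at 109 to 125 FPKM at E3 and 98.2 to 116 FPKM in the cornea, and SDHB at 62.4 to 68.3 and 52.0 to 68.4 FPKM.

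In complex IV, 4 of 10 members were called higher and 1 lower in the cornea, 5 in all, where 41.7% of all genes were called. COX8A, a small subunit of the membrane part, was at 39.9, 34.8 and 43.3 FPKM in the E3 libraries, 50.3, 43.8 and 49.8 FPKM at E5 and 65.9, 61.4 and 53.5 FPKM at E7. Every corneal library lay above every E3 library, and the change was 0.61 (SE 0.10, adjusted p = 0.00204). COX6A1, the most abundant member and the form found in most tissues outside heart and skeletal muscle in mammals, was at 300.3, 292 and 297 FPKM in the E3 libraries, 342, 304 and 329 FPKM at E5 and 356, 384 and 339 FPKM at E7. Its change was 0.36 (SE 0.06, adjusted p = 0.00284), without overlap. Both genes kept this call under every alternative run, but at E5 both lost it with library size alone and in limma on FPKM. COX7B (0.33, adjusted p = 0.0102) and NDUFA4 (0.27, adjusted p = 0.0283) were called higher too. Both lost their call with library size alone, in limma on FPKM and without E3 library 1, and NDUFA4 under 9 alternatives in all.

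COX7A2L was the member of complex IV that fell. In mammals this relative of COX7A2, also called SCAF1, joins complexes III and IV into supercomplexes. It was at 66.8, 73.4 and 73.3 FPKM in the E3 libraries, 44.1, 44.2 and 53.4 FPKM at E5 and 51.9, 57.8 and 43.1 FPKM at E7, so that the corneal libraries lay below all E3 libraries. The change was -0.39 (SE 0.09, adjusted p = 0.00833), called for the cornea as a whole under every alternative run. Its calls in the single groups were lost under 3 alternatives at E5 and 5 at E7. COX7A2, the subunit it resembles, changed by -0.12 (adjusted p = 0.329). COX4I1, the first of the isoforms of subunit 4, stood at 310 to 327 FPKM at E3 and 269 to 333 FPKM in the cornea and was not called (0.07, adjusted p = 0.463).

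**Figure D3:**
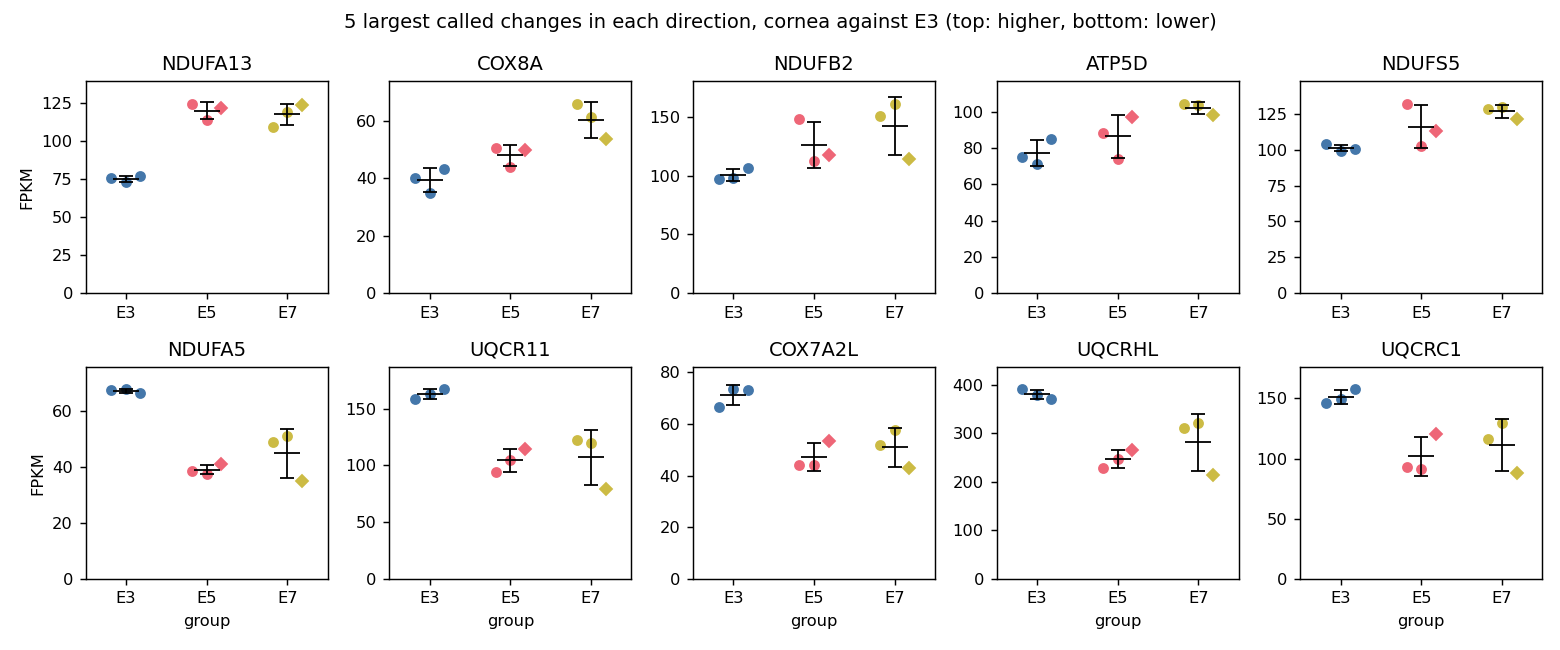
FPKM by library (points; diamonds mark E5 library 3 and E7 library 3) with the group mean and SD (bars, n = 3) for the 5 members with the largest called log2 fold change in each direction in cornea against E3. In the lower row every corneal library lies below every E3 library, while in the upper row the groups overlap for ATP5D and NDUFS5 on this scale.

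The ATP synthase had 4 members called higher and 2 lower of 16, 37.5% in either direction against 41.7% of all genes. ATP5D, the delta subunit of the central stalk, was at 75.2, 71.1 and 85.2 FPKM in the E3 libraries, 88.4, 73.9 and 97.4 FPKM at E5 and 104, 104 and 98.4 FPKM at E7. One E5 library lay within the E3 range, and the change was 0.44 (SE 0.09, adjusted p = 0.00647), called for the cornea as a whole and at E7 under every alternative run. Its call at E5 (0.34, adjusted p = 0.0370) was lost under 11 of 19 alternatives, library size alone and limma among them. ATP5E (0.37), another subunit of the central stalk, ATP5L (0.28), subunit g of the membrane part, and ATP5G2 (0.37) were called in the cornea and at E7 but not at E5. Each lost its call with library size alone, in limma on FPKM and without any 1 of the E3 libraries. ATP5C1, the gamma subunit that turns within the catalytic head, was at 283, 288 and 280.4 FPKM in the E3 libraries, 175, 192 and 204 FPKM at E5 and 221, 227 and 179 FPKM at E7. It changed by -0.35 (SE 0.07, adjusted p = 0.00422) and lost its call when the largest of its 3 entries was used alone. The beta subunit ATP5B was not called (-0.03, adjusted p = 0.850), with 417.5 to 502 FPKM at E3 and 343 to 483.5 FPKM in the cornea. ATP5F1AW is the W-linked copy of the alpha subunit gene; with no entry matched to the Z-linked copy, its value of -0.45 (adjusted p = 0.138) is uncertain.

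Subunit c, which forms the rotating ring of the synthase, is encoded by 3 genes, and the proportions of their summed entries shifted. ATP5G2 supplied 16.1, 16.0 and 15.9% of their summed FPKM in the E3 libraries and 19.9 to 22.6% in the cornea. ATP5G1 went from 32.2 to 35.1% at E3 to 27.3 to 30.1% in the cornea. ATP5G3, the most abundant of the 3, stood at 48.9 to 51.9% and 47.8 to 52.4%. Of the 3 shares, those of ATP5G2 and ATP5G1 did not overlap between E3 and cornea. On the scale of counts ATP5G2 changed by 0.37 (adjusted p = 0.0192), ATP5G1 by -0.32 (adjusted p = 0.0482) and ATP5G3 by -0.11 (adjusted p = 0.330). The calls of ATP5G2 and ATP5G1 were lost under 7 and 9 of the alternatives. ATP5G1 has 2 entries, and with the larger alone its change in the cornea was -0.07 (adjusted p = 0.613) and at E7 0.04, so its part in the shift rests on the sum of entries.

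Taken group by group, E5 had 11 members called higher and 8 lower than E3, against 18.5% and 17.7% of all genes tested, or 27.5% of members against 36.2% of genes in either direction. E7 had 15 higher and 4 lower, against 17.3% and 16.4%, or 27.5% against 33.7%. Changes under 0.5 in size on the log2 scale were found in 65 members at E5 and 64 at E7, against 53.8% and 54.8% of all genes, and 1 member in each, NDUFS3 at E5 and NDUFB3 at E7, differed by 1 or more without being called, against 24.3% and 23.5%. On scaled counts the E5 libraries lay above those of E3 in 15 members and below in 16, against 27.0% and 27.5% of all genes. The E7 libraries lay above in 22 members and below in 11, against 26.6% and 26.8%. With library size alone E5 had 1 higher and 14 lower and E7 had 7 and 6, and limma on log2(FPKM + 1) gave 1 and 16 and 9 and 8, so at E5 the balance turned over. All genes tilted the same way. With library size alone, 1652 of 11748 were called higher and 2955 lower at E5, and 1628 and 2577 at E7. Limma called 1438 of 9969 higher and 2935 lower at E5, and 1404 and 2629 at E7. The members' counts also moved with single libraries: without E3 library 2, E5 had 4 higher and 2 lower, and E7 had 10 higher and 0 lower. Over all genes, 1428 of 11906 were then called higher and 1334 lower at E5, and 1329 and 1250 at E7, again fewer than with all libraries. Without E3 library 1 the members' counts were 4 and 3 for E5 and 9 and 1 for E7, and without E3 library 3 they were 6 and 2 and 10 and 0. E5 had 5 higher and 2 lower without E5 library 1, 3 lower without E5 library 2, and 13 lower without E7 library 3. With E5 library 3 and E7 library 3 both left out, E5 had 14 higher and 14 lower (25.7% and 24.3% of all genes), E7 had 24 higher and 5 lower (21.6% and 21.0%), and the cornea as a whole 19 higher and 10 lower (26.3% and 25.7%). Those libraries were picked because they stood apart in these same data, so the p-values behind these counts do not allow for that choice.

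Between E7 and E5, edgeR called 0 members and 0.0% of all genes. At an unadjusted p under 0.05 there were 2 members and 279 genes, and DESeq2 and limma called 0 members as well. The libraries of E7 and E5 did not overlap in 3 members, all higher at E7, namely COX8A, ATP5D and ATP5S, against 2.37% of all genes higher and 2.58% lower. The difference was under 0.5 in size in 67 members, against 84.3% of all genes, and 1 or more in 1, NDUFB3, against 6.55%. With E5 library 3 and E7 library 3 both left out, 14 members were called higher at E7 and 1 lower, against 11.3% and 11.4% of all genes. Among them were NDUFB4 (0.46, adjusted p = 0.0043), NDUFA8 (0.38, adjusted p = 0.0140), UQCRFS1 (0.37, adjusted p = 0.00897), UQCRHL and UQCRC1. E5 library 3 and E7 library 3 were picked in these same data because each resembled the other corneal group. Leaving them out therefore widens the difference between E7 and E5, and these adjusted p-values do not allow for that choice. Summed complex III transcripts show the pattern, with 912, 936 and 1063 FPKM in E5 libraries 1 to 3 and 1225, 1261 and 855 FPKM in E7 libraries 1 to 3, against 1391 to 1407 FPKM at E3. The sum of all members did the same, with 8288, 8209 and 9139 FPKM in E5 libraries 1 to 3 and 9957, 10391 and 7955 FPKM in E7 libraries 1 to 3. In both sums E7 library 3 was the lowest of all 9, and E5 library 3 was the highest of its group. Among the corneal libraries the keratocyte marker sum ran the opposite way. The marker sum of neurons and glia, mostly FABP7, was 56.0, 53.7 and 305 CPM in E5 libraries 1 to 3. It was 294, 283 and 54.6 CPM in E7 libraries 1 to 3 and 121 to 130 CPM at E3. Of the 10 genes of that list, 0 were called higher and 7 lower in cornea against E3 (20.9% and 20.8% of all genes). The sum therefore does not speak for the list. The sum of corneal epithelium and surface ectoderm was 174, 450 and 235 CPM in E5 library 3 and E7 libraries 1 and 2. In the other corneal libraries it was at most 26.2 CPM. The part of these cell types in the values was not tested.

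**Figure D4:**
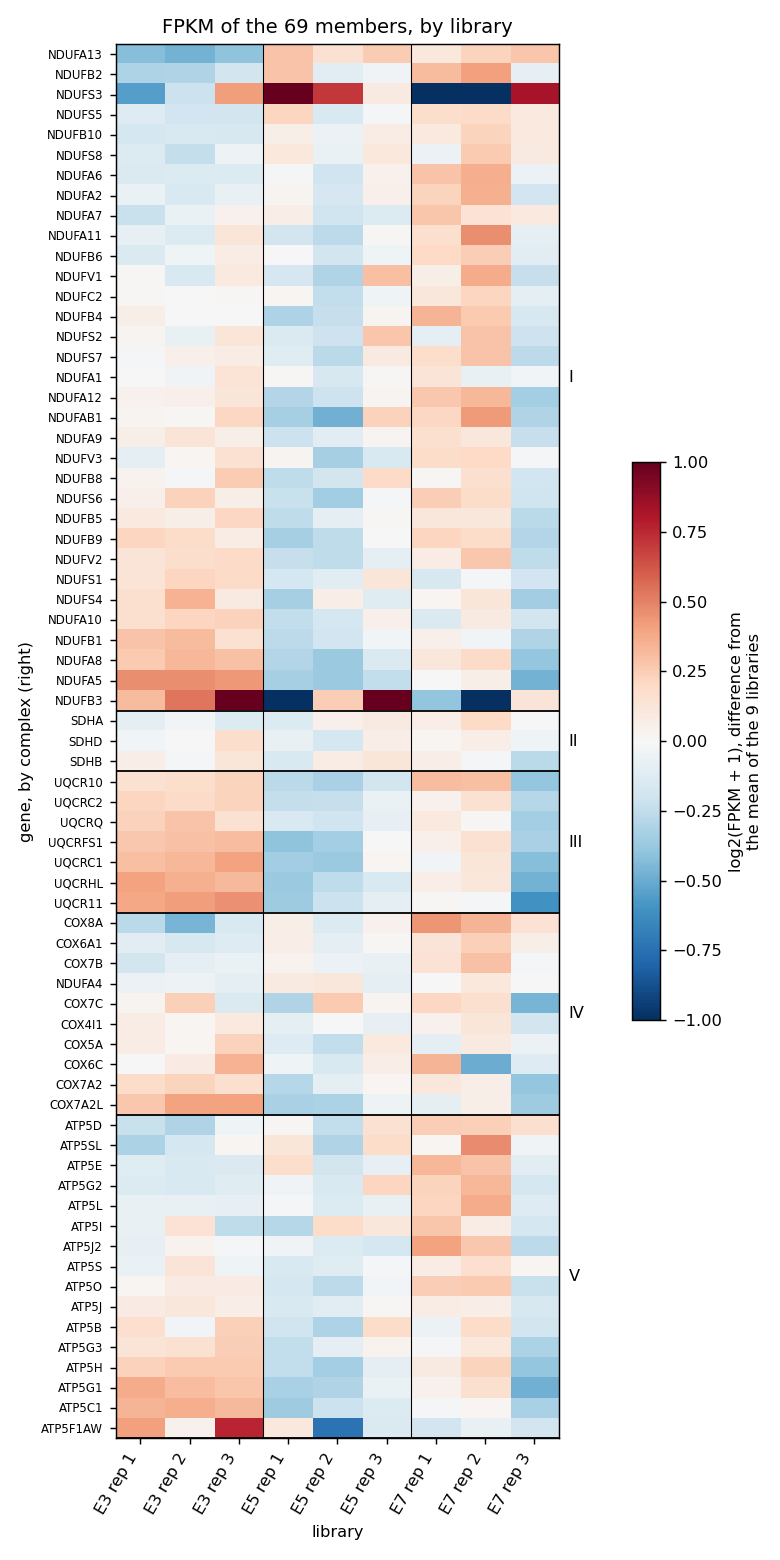
Log2(FPKM + 1) of each of the 69 members minus its mean over the 9 libraries (colour), with libraries as columns and members as rows, grouped by complex and ordered by log2 fold change in cornea against E3. In complex III the 3 E3 columns are the highest of every row except that of UQCR10, and E7 library 3 is below the mean in all 7 rows; on this scale, as with library size alone, more members lie lower in the cornea than on the TMM scale.

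Among genes that build and feed the chain, most members of 2 lists were called lower in the cornea. Of 24 genes for cytochrome c, carriers, import and cristae, 0 were called higher and 14 lower, with a median of -0.44. Over all genes tested, 20.9% were called higher and 20.8% lower, or 41.7% either way. Of 64 mitochondrial ribosomal proteins, 2 were called higher and 38 lower, with a median of -0.34. Under the alternatives run, the counts of lower calls ranged from 12 to 18 and from 23 to 45. Assembly factors had 5 higher and 12 lower of 47 (median -0.08), the citric acid cycle and pyruvate dehydrogenase 3 and 8 of 16 (-0.20), regulators of mitochondrial biogenesis 0 and 6 of 16 (-0.23), and hypoxia-linked genes 2 and 4 of 12 (-0.21). Cytoplasmic ribosomal proteins had 5 higher and 2 lower of 71 (0.04). In either direction, 68.8% of the citric acid cycle and pyruvate dehydrogenase list were called. Mitochondrial ribosomal proteins followed with 62.5% and the carrier and import list with 58.3%. These 3 lists and the hypoxia-linked list lay above the 41.7% of all genes. Under that share were the biogenesis regulators (37.5%), the assembly factors (36.2%) and the cytoplasmic ribosomal proteins (9.86%). All 6 calls among the biogenesis regulators were lower, 37.5% against the 20.8% of all genes called lower. The lists were not tested against the subunits or against each other. The 13 subunits encoded in the mitochondrion had no matched entry and are not analysed here.

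**Figure D5:**
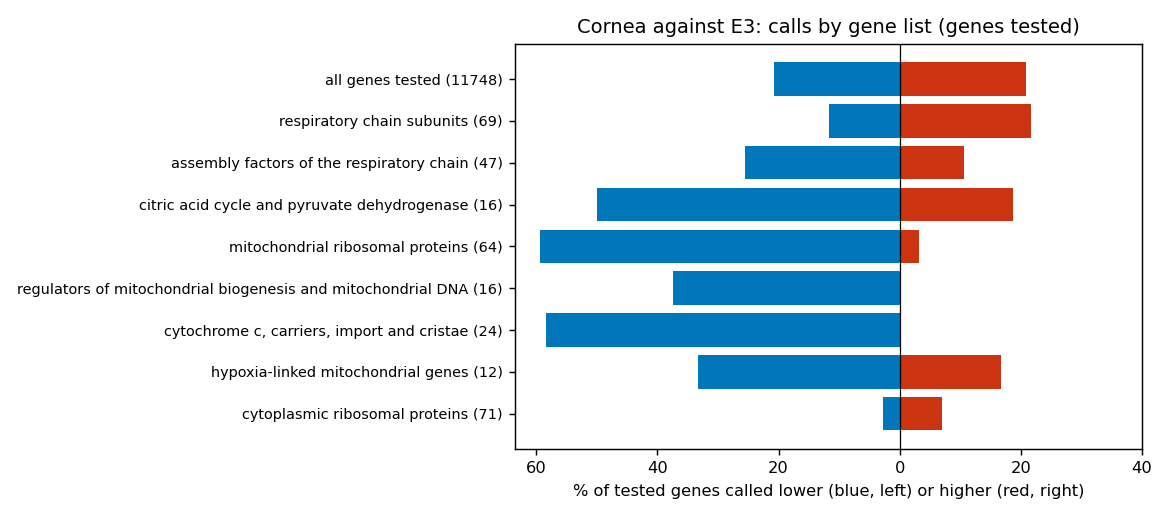
Percent of the tested genes of each list called lower (left, blue) and higher (right, red) in cornea against E3, with the number tested in brackets and TMM scaling. Mitochondrial ribosomal proteins (38 of 64) and the list of cytochrome c, carriers, import and cristae (14 of 24) are mostly lower, whereas the subunits have 15 higher and 8 lower. With library size alone the subunits have 7 higher and 15 lower, and all genes tested 1918 higher and 3338 lower.

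Within the list of carriers and import, the steepest falls were in the chaperones of the matrix. HSPE1 and HSPD1, which fold imported proteins together, changed by -1.12 (SE 0.13, adjusted p = 0.000461) and -1.10 (SE 0.14, adjusted p = 0.000646). HSPD1 was at 518, 508 and 539.6 FPKM in the E3 libraries, 167, 197 and 250.1 FPKM at E5 and 268, 268 and 171 FPKM at E7. HSPA9, the import motor chaperone, changed by -1.02, and none of the 3 overlapped with E3. CYCS, cytochrome c itself, was called lower at -0.58. TFAM, which packages mitochondrial DNA and takes part in its transcription, changed by -0.64 and POLRMT, the mitochondrial RNA polymerase, by -0.53. MRPS27, MRPS35 and MRPL45 fell by 0.88, 0.77 and 0.74 on the log2 scale, while MRPL43 rose by 0.47. In the hypoxia-linked list EPAS1, a hypoxia-inducible transcription factor, lay at 12.7 to 13.7 FPKM at E3 and 0.08 to 2.61 FPKM in the cornea. Its change of -3.32 (SE 1.06, adjusted p = 0.0361) lost its call under 9 alternatives, DESeq2 among them. In the same list VHL was called higher at 0.56, and PDK1 and LONP1 lower at -0.61 and -0.53. VHL and LONP1 kept these calls under every alternative run, while PDK1 lost its call under 3.

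Among assembly factors, LRPPRC, which stabilises mitochondrial mRNAs, went from 107 to 116 FPKM at E3 to 43.7 to 63.0 FPKM in the cornea (-0.87, adjusted p = 0.000427). ATPAF2, which assembles the head of the synthase, changed by -0.80, and TTC19, a factor of complex III, by -0.75. COX17, the copper chaperone of complex IV, rose by 0.70 and SCO2, another copper-handling factor of that complex, by 0.54. FMC1, a synthase assembly factor in yeast, rose by 0.95. In the citric acid cycle, IDH2 (0.93) and OGDH (0.61) were called higher and SUCLG2 (-0.84), DLAT (-0.45) and PDHX (-0.44) lower. IDH2 and SCO2 lost their calls without E3 library 1 or 2, and TTC19 without E3 library 2 or 3.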

How the data were processed

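RNA-seq of 9 libraries of the chick embryo was analysed, 3 per group, grouped by their titles. Per the file headers, the authors deposited 2 values per entry and library, an expected count (an estimate, not always a whole number) and its FPKM. Bowtie2, HISAT and the genome build galGal5 are named in the submitters' processing notes; versions, annotation, strand use and the program that counted were not given in the sources used here. The 46855 entries are identified by NCBI gene number or transcript accession, and were named from a RefSeq table of assembly GRCg7b, another build, so no coordinates are given. No gene was found for 22897 entries, which hold 21.4 to 23.5% of a library's counts and stayed out of the tests but stayed in the library totals. The 69 members have 92 entries, 17 members having 2 or more, which were summed per gene. Entries absent from a library count as 0.

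Summed expected counts were rounded to whole numbers and tested in R 4.3.3 with edgeR 4.0.16 (TMM factors, filterByExpr by group, quasi-likelihood F-test) on all 9 libraries without covariates, which left 11748 genes and all 69 members. The SE is the absolute log2 fold change divided by the square root of F. Overlap of libraries was counted on CPM with TMM factors. Tested on simulated data with 11533 genes after the filter, the fit gave this recovery: at 2-fold, 59 of 100 changed genes were recovered in cornea against E3, and at 4-fold, 95. In E5 and E7 against E3 it was 51 and 50 at 2-fold, and 87 and 88 at 4-fold. Unchanged genes called numbered 8 in cornea, 7 in E5 and 5 in E7 against E3. The changed genes were drawn from the more abundant ones. Simulated E5 and E7 libraries shared the same means, so no library was made to stand apart from its group. By the chi-square per degree of freedom, no replicate pair differed by less than sampling noise. It was 9.65 to 12.11 within E3, 23.83 for E5 libraries 1 and 2 and 14.24 for E7 libraries 1 and 2. For pairs of a group that include E5 library 3 or E7 library 3 it was 76.81 to 139.44.

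Alternatives were RLE factors, library size alone, no filter, DESeq2 1.42.0, limma 3.58.1 on log2(FPKM + 1) and log2(FPKM + 0.1), the largest entry of each gene, a fit with only the groups compared, each library left out in turn, E5 library 3 and E7 library 3 left out together, a replicate block, and other assignments of NDUFA4, ATP5S and ATP5SL. The members, lists and comparisons were chosen with earlier results of these data known. Named by rule were, per complex, the member with the highest mean FPKM, the largest called change each way per comparison, succinate dehydrogenase and isoform pairs, and members whose call differs from most of their complex; per list, up to 3 called members each way with a mean FPKM of 5 or more. Other members called in cornea against E3, UQCRFS1, UQCRC2, UQCRQ, UQCR10, NDUFS3, NDUFB3 and CYCS were named after their values were seen.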

Additional observations from a re-analysis of the deposited data

How the results depend on the processing

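With library size alone, 7 respiratory chain subunits were called higher and 15 lower in cornea against E3, 1 and 14 in E5 against E3, and 7 higher in E7 against E3. Over all genes tested, it gave 1918 higher and 3338 lower, 1652 and 2955, and 1628 higher in these comparisons. Limma with either pseudocount gave 7 and 16, 1 and 16, and 9 and 8. With the largest entry of each gene alone, 5 were lower in cornea against E3. With E5 library 3 and E7 library 3 both left out, 14 were lower in E5 against E3, 24 higher in E7 against E3, and 14 higher and 1 lower in E7 against E5. Those libraries were picked from these same data, and the calls do not allow for that choice. Leaving out 1 library in turn gave 8 to 18 higher and 3 to 9 lower in cornea against E3, 4 to 13 and 2 to 13 in E5 against E3, 9 to 21 and 0 to 4 in E7 against E3, and 0 and 0 in E7 against E5. Same-numbered libraries deviated from their group means with correlations of -0.771 to 0.085. Deviations from a mean of 3 libraries are tied to each other, and the lowest value is that of E5 library 3 with E7 library 3. These values therefore cannot decide whether the numbers pair the samples. With the replicate block, 5 were lower in cornea against E3, 7 higher and 4 lower in E5 against E3, and 2 lower in E7 against E3. The cause of these differences was not tested. No named gene changed sign in a setting where it was called, but the members' median in cornea against E3 turned from 0.07 to -0.09 with library size alone. Without ATP5S and ATP5SL the median of complex V at E5 was -0.02 instead of 0.03. With 3 libraries per group, most of the members' changes are smaller than the 2-fold change of the simulated data. In cornea against E3 all of them are. The changed genes of that simulation were drawn without regard to membership, so its recovery does not give the power for the members.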
